A study of Mus musculus with 6 samples.

Results

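C-fibre low-threshold mechanoreceptors (C-LTMRs) were compared with the remaining cells of the mouse dorsal root ganglion across every gene with a measurable level in either subset. The ganglia hold the cell bodies of sensory neurons, wrapped by satellite glia and threaded by Schwann cells, blood vessels and connective tissue. C-LTMRs are unmyelinated neurons that end around hair follicles, answer gentle stroking of hairy skin and are known for tyrosine hydroxylase, the vesicular glutamate transporter VGLUT3 and the secreted protein TAFA4. Other unmyelinated neurons of the ganglion include peptidergic nociceptors, which release substance P and CGRP, while the larger neurons that sense touch and limb position have myelinated axons.

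Cells came from animals of genotype GINIP+/mcherry, in which 1 allele of GINIP carries an mCherry reporter (GINIP binds alpha subunits of inhibitory G proteins), and were sorted by flow cytometry for mCherry and for isolectin B4 (IB4), a lectin that binds many non-peptidergic nociceptors. The C-LTMR subset was IB4-GINIP+ (2 libraries) and the DN (double-negative) subset was IB4-GINIP- (2 libraries). The third subset of the series, IB4+GINIP+ (DP, 2 libraries), was not part of the comparison, and all animals carried the reporter. Age and sex are not among the labels. Nothing says that separate animals gave the 2 libraries of a subset, and the spread that p-values rest on is that of these samples alone and may be technical. Both subsets were IB4-negative, so the sort set them apart by GINIP alone. DN lacked both labels and is a mixture with no single marker. Its labels call it both remaining sensory neurons and remaining cells.

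Levels are RPKM values (reads per kilobase of gene per M reads), and values are given in the order replicate 1, replicate 2. Of the 23029 genes in the deposited table, 13907 (60.4%) were tested because they reached 0.3 RPKM in both libraries of at least 1 subset: 11863 in both subsets, 443 in C-LTMR only and 1601 in DN only. Differences are C-LTMR minus DN on the log2(RPKM + 0.1) scale, ± SE, which understates the change of genes near 0. A gene was called higher or lower when the p from limma, adjusted by the Benjamini-Hochberg method over all genes tested, was under 0.05 and the log2 difference was at least 1 in size. Counts over a gene list are over its members that passed the filter. They are to be read against the shares of all genes tested, 8.77% higher and 23.2% lower. An exact permutation test of 2 libraries against 2 cannot give a two-sided p under 0.3333, so all calls rest on the spread that limma shares across genes. The depth is unknown, since RPKM values carry no read counts here. The summed RPKM of a library lay between 437935 and 469150, replicates correlated across genes at r = 0.9931 (C-LTMR) and 0.9863 (DN), and libraries of different subsets at 0.7941 to 0.8418. The median difference between replicate 2 and replicate 1 was 0.01 in C-LTMR and -0.04 in DN.

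The sort gene was compared first. N28178, the gene of GINIP, was at 141 and 149.5 RPKM in C-LTMR and at 18.6 and 13.8 RPKM in DN (log2 difference 3.17 ± 0.16). It was the sorting criterion, so this is a check of the labels and no result, and it was not at 0 in DN. Th, which makes tyrosine hydroxylase, was at 1017 and 1038 RPKM in C-LTMR and at 31.7 and 14.2 RPKM in DN (log2 5.59 ± 0.35; limma adjusted p = 8.88e-05), so the highest DN library was far below the lowest C-LTMR library. Fam19a4, the gene of TAFA4, was at 222 and 191 RPKM against 0.294 and 0.369 RPKM (log2 8.91 ± 0.16; limma adjusted p = 1.10e-05). Cacna1i, the pore of the T-type calcium channel Cav3.3, was at 10.5 and 14.2 RPKM against 0.00786 and 0.0221 RPKM (log2 6.74 ± 0.23; limma adjusted p = 2.17e-05). These 3 genes were high in the libraries labelled C-LTMR, as known for these neurons. Adcyap1, which encodes the neuropeptide PACAP, went the other way, with 7.99 and 7.37 RPKM in C-LTMR against 543 and 540.4 RPKM in DN (log2 -6.12 ± 0.11; limma adjusted p = 1.10e-05).

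Of the 13907 genes, 1219 (8.77%) were higher and 3229 (23.2%) lower in C-LTMR. Calls were therefore made for 4448 genes, 32.0% of those tested, with a median size of 2.18 on the log2 scale. The call rate depended on where a gene passed the filter: 882 (7.43%) were higher and 1783 (15.0%) lower among genes that passed in both subsets, whereas 337 (76.1%) of the genes that passed in C-LTMR only were higher and 1446 (90.3%) of those that passed in DN only were lower, as that filter all but fixes. Genes higher in C-LTMR made up 27.4% of calls here. That split moved with the scaling: it was 1706 higher and 2864 lower (37.3%) with libraries brought to equal medians, 1465 and 2974 (33.0%) with libraries scaled to 20 pan-sensory-neuron genes, 2117 and 2337 (47.5%) with quantile normalization, and 589 and 967 (37.9%) in the smaller TMM-normalized table. The median over all genes tested was -0.08 here and 0.16, 0.06, 0.15 and 0.01 in those settings.

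**Figure D1:**
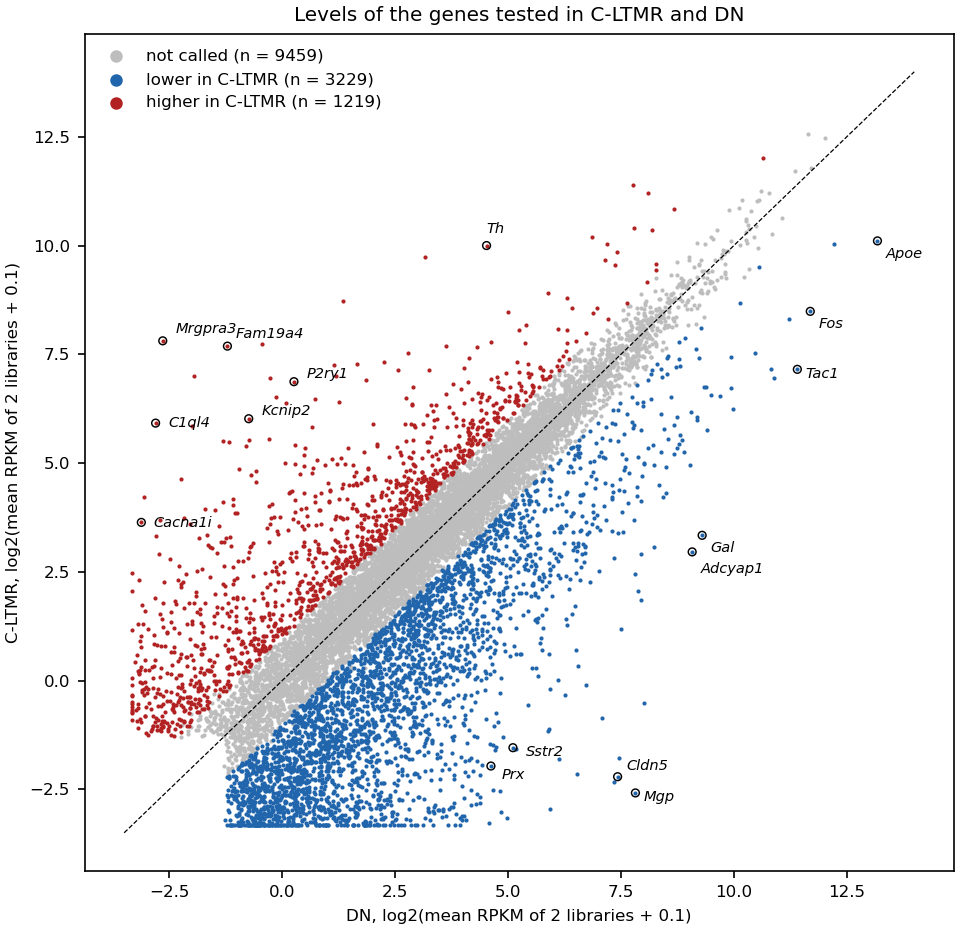
Mean RPKM of the 2 DN libraries (x axis) against the mean of the 2 C-LTMR libraries (y axis), both as log2(RPKM + 0.1), one point per gene tested and the dashed line at equal levels. The 1219 genes higher in C-LTMR lie above the line and the 3229 lower genes below it, and the blue points along the bottom edge are genes near 0 in C-LTMR.

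The 8 genes of largest difference in each direction are named here. Mrgpra3, a Mas-related receptor known as the chloroquine itch receptor, had the largest difference, with 259 and 190.3 RPKM in C-LTMR and 0 and 0.12 RPKM in DN (log2 10.55 ± 0.38). Receptors of this family are near-copies of each other in the genome, so the share of reads counted to Mrgpra3 itself is uncertain. After it came Ceacam10, an adhesion protein gene, at 125 and 132 RPKM against 0.196 and 0.118 RPKM, then Fam19a4, C1ql4 (log2 8.74), Wfdc2 (8.17), Osta (7.87), Tmem45b (7.54) and Cdh9 (7.28). Tmem45b was at 444 and 408 RPKM in C-LTMR and at 1.35 and 3.53 RPKM in DN. At the other end stood Mgp, the matrix Gla protein of connective tissue and vessel walls, with 0.082 and 0.0517 RPKM in C-LTMR and 185 and 268 RPKM in DN (log2 -10.39 ± 0.22). The other 7 were Ly6c1 (-9.64), Cldn5 (-9.60), Ly6a (-9.24), Emcn (-8.84), Srgn (-8.58), Igfbp7 (-8.48) and Grrp1 (-8.10). Since one side of each pair is near 0, these sizes depend on the value added before the logarithm: Mrgpra3 was 12.59 with 0.01 added and 7.72 with 1 added, and Mgp -11.53 and -7.71. With 1 added, several genes named further on kept their direction but not their call, at sizes between 0.35 (Kif11) and 0.98 (Fam19a3 and Slc2a3), among them Chrm3, Trpc5, Cacna1c, Grin2c, Grik2, Crh, Hoxa2, Pdgfra, Prtn3, Cpa3, Cd79a, Bub1, Plk1 and Cox4i2.

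The windows before 3 genes are printed because their genes were called in opposite directions: Th, the most abundant C-LTMR marker, and Nr4a1 and Btg2, immediate early genes that were lower in C-LTMR. Each is the 250 bases before the RefSeq start (GRCm38.p6), 5′ to 3′ on the strand of the gene, with TGACG, the short core of the cyclic AMP response element, in capitals on either strand (CGTCA where it lies on the other strand, and TGACGTCA where both overlap). The windows are chr7:142899996-142900245 (minus strand) for Th, chr15:101266596-101266845 (plus strand) for Nr4a1 and chr1:134079156-134079405 (minus strand) for Btg2.
Th: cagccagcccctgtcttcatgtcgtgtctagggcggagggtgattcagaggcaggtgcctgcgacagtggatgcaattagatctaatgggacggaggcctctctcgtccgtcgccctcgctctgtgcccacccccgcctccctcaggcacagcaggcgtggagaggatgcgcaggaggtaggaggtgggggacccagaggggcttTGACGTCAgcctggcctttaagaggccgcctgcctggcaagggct
Nr4a1: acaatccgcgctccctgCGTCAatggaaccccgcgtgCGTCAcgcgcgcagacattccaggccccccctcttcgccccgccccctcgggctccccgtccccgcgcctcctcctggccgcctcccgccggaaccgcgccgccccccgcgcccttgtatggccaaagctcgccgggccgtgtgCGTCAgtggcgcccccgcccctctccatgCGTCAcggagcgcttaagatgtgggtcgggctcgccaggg
Btg2: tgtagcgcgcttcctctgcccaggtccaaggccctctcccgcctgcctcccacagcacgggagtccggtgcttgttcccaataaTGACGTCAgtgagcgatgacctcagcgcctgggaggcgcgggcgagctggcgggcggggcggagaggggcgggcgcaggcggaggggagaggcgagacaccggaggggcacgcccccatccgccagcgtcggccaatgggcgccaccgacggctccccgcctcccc
The full TGACGTCA begins 45 bases before the start of Th and 166 bases before that of Btg2, and Nr4a1 holds 4 short cores, at 233, 213, 69 and 40 bases before its start. Among the genes tested with a window in the table, 3290 of 10956 (30%) hold the short core and 3.1% the full element. For the immediate early, stress and injury genes tested the counts were 7 of 17 (41.2%) and 2 of 17 (11.8%), and for the C-LTMR markers 2 of 11 (18.2%) and 1 of 11 (9.1%). A match describes these letters only.

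Of 16 C-LTMR markers, 14 were higher and 1 lower, with a median log2 difference of 5.07 against -0.08 over all genes tested. The list was set up as markers of this subset, and not every member is an established one. Of the 16, 10 passed the filter in both subsets, and the members were chosen with these data known. Bhlha9, a basic helix-loop-helix factor gene, was at 137 and 111 RPKM against 0.786 and 0.666 RPKM (log2 7.22). P2ry1, an ADP receptor, was at 116 and 119 RPKM against 0.956 and 1.24 RPKM (6.62), and Pou4f2, the POU factor BRN3B, at 40.2 and 43.8 RPKM against 0.695 and 0.26 RPKM (6.30). Slc17a8, which encodes VGLUT3, was at 17.1 and 19.1 RPKM against 0.529 and 0.216 RPKM (5.35), and Gfra2, the neurturin co-receptor, at 180.2 and 187 RPKM against 4.99 and 8.6 RPKM (4.79). Fam38b, which makes the touch channel PIEZO2, was at 30.8 and 37.6 RPKM against 2.37 and 1.71 RPKM (4.01). In none of these genes did the libraries of the subsets overlap, which differences of this size nearly require. The share of all genes tested without overlap was not counted. Zfp521 (3.90), Kcnd3 (3.66), Ret (2.29) and Cacna1h (2.13) were higher by less. Runx1, a transcription factor of the non-peptidergic lineage, was at 40.3 and 41.3 RPKM against 26.9 and 23.3 RPKM, a difference of 0.70 ± 0.12 under the size threshold. Ldhb, the heart-type lactate dehydrogenase subunit, was the lower one, at 65.1 and 58.0 RPKM against 201.5 and 231 RPKM (log2 -1.81 ± 0.13; limma adjusted p = 0.000126). These values do not bear out its place on the list.

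**Figure D2:**
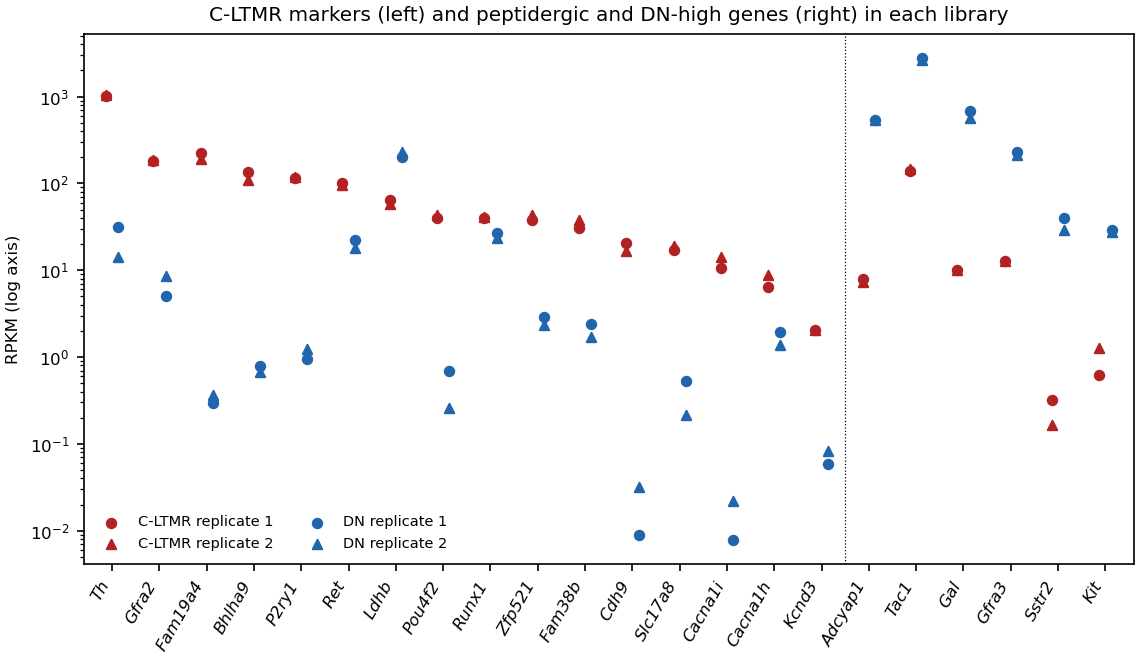
RPKM (log axis) of the 16 C-LTMR markers (left of the dotted line) and of 6 genes high in DN (right), with circles for replicate 1, triangles for replicate 2, red for C-LTMR and blue for DN. The Th points of C-LTMR lie at 1017 and 1038 RPKM against 31.7 and 14.2 in DN, and the Runx1 points lie close together. Ldhb, whose place on the list these values do not bear out, lies lower in C-LTMR.

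Markers of other sensory neurons divided by class. Of 18 peptidergic nociceptor and thermoreceptor markers, 7 were under the filter in both subsets. Of the 11 tested, 10 were lower in C-LTMR and none higher (median log2 -4.09), with 8 of the 11 passing the filter in both subsets. Tac1, the precursor of substance P, was at 139 and 146 RPKM in C-LTMR against 2793 and 2650.4 RPKM in DN (log2 -4.25 ± 0.12). Gal, the precursor of galanin, was at 9.99 and 10.1 RPKM against 690.5 and 572 RPKM (-5.95 ± 0.13). Sstr2, a somatostatin receptor, was at 0.321 and 0.165 RPKM against 39.6 and 29.3 RPKM (-6.68 ± 0.28). Calca, the precursor of alpha-CGRP, was lower by less, at 1098 and 1008 RPKM against 5045 and 4465 RPKM (-2.17 ± 0.16), whereas Calcb, for beta-CGRP, was at 343 and 353 RPKM against 282 and 233 RPKM and was not called (0.44). The pair of CGRP genes thus had unequal differences. Trpv1, the capsaicin receptor, was at 12.3 and 8.44 RPKM against 63.8 and 37.5 RPKM (-2.25). Both subsets therefore held this transcript.

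Non-peptidergic nociceptors marked by Mrgprd gave 5 higher and 2 lower of 11 markers (median 0.86). Grik1, the kainate receptor subunit GluK1, led at 94.0 and 84.7 RPKM against 1.0 and 2.09 RPKM (log2 5.85). Mrgprd itself was low in every library, at 1.32 and 2.01 RPKM against 0.345 and 0.953 RPKM (1.34 ± 0.44; limma adjusted p = 0.0436). That call was lost under 10 alternatives, among them leaving out C-LTMR replicate 1 (1.63, limma adjusted p = 0.0656), C-LTMR replicate 2 (1.05, 0.189) or DN replicate 1 (0.72, 0.182). Lower were Agtr1a (-1.86) and Ggta1, the enzyme that makes the sugar bound by IB4 (1.12 and 0.95 RPKM against 4.31 and 4.60 RPKM, -2.01). The Agtr1a call was lost without DN replicate 2 (-1.36, limma adjusted p = 0.0549) and under 4 other settings. Of 11 itch-related neuron markers, 3 were higher and 1 lower (median 0.74). Mrgpra3, given above, led (10.55), so the libraries labelled C-LTMR also held transcripts listed as markers of itch-related neurons. Hrh1, the histamine H1 receptor, was at 4.08 and 3.67 RPKM against 0.296 and 0.213 RPKM (3.50), and Mrgprx1 at 5.41 and 6.59 RPKM against 0.834 and 0.778 RPKM (2.74). Htr1a was the lower member (-3.21), and Ptgdr and Jak1 were not called. Without DN replicate 1, 5 were higher. Of 15 markers of myelinated mechanoreceptors and proprioceptors, 3 were higher (Ntrk3, the neurotrophin-3 receptor, 3.09; Necab2, 2.81; Etv1, 2.6) and 6 lower (median -0.38), led by Maf (-3.37), Spp1 (-2.66) and Calb1 (-1.92). Without DN replicate 2 only 3 remained lower, and without either DN library Spp1 and Calb1 were no longer called. Nefl and Nefm, neurofilament subunits, were abundant in both subsets and not called (0.91 and -0.38). Nefl was called higher with libraries at equal medians (1.15) and scaled to pan-sensory-neuron genes (1.05).

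Genes shared by sensory neurons gave 4 higher and 5 lower of 20 (median 0.40). Their 25% lower was near the 23.2% over all genes tested. Prph, the intermediate filament peripherin, was at 2613 and 2282 RPKM against 1802 and 1292 RPKM and was not called (0.68), and neither was Uchl1 (0.39). Syt1, the calcium sensor of transmitter release, was higher at 151 and 170.4 RPKM against 41.6 and 31.6 RPKM (2.14), with Pou4f1 (1.98) and Avil (1.61). Celf4, an RNA-binding protein gene, was lower at 14.1 and 11.4 RPKM against 150.3 and 136 RPKM (-3.49), with the granule protein gene Scg2 (-3.33) and Mtap2 (-2.54). The summed level of the neuronal list was 11240 and 10490 RPKM in C-LTMR against 10780 and 8056 RPKM in DN, lowest in DN replicate 2.

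**Figure D3:**
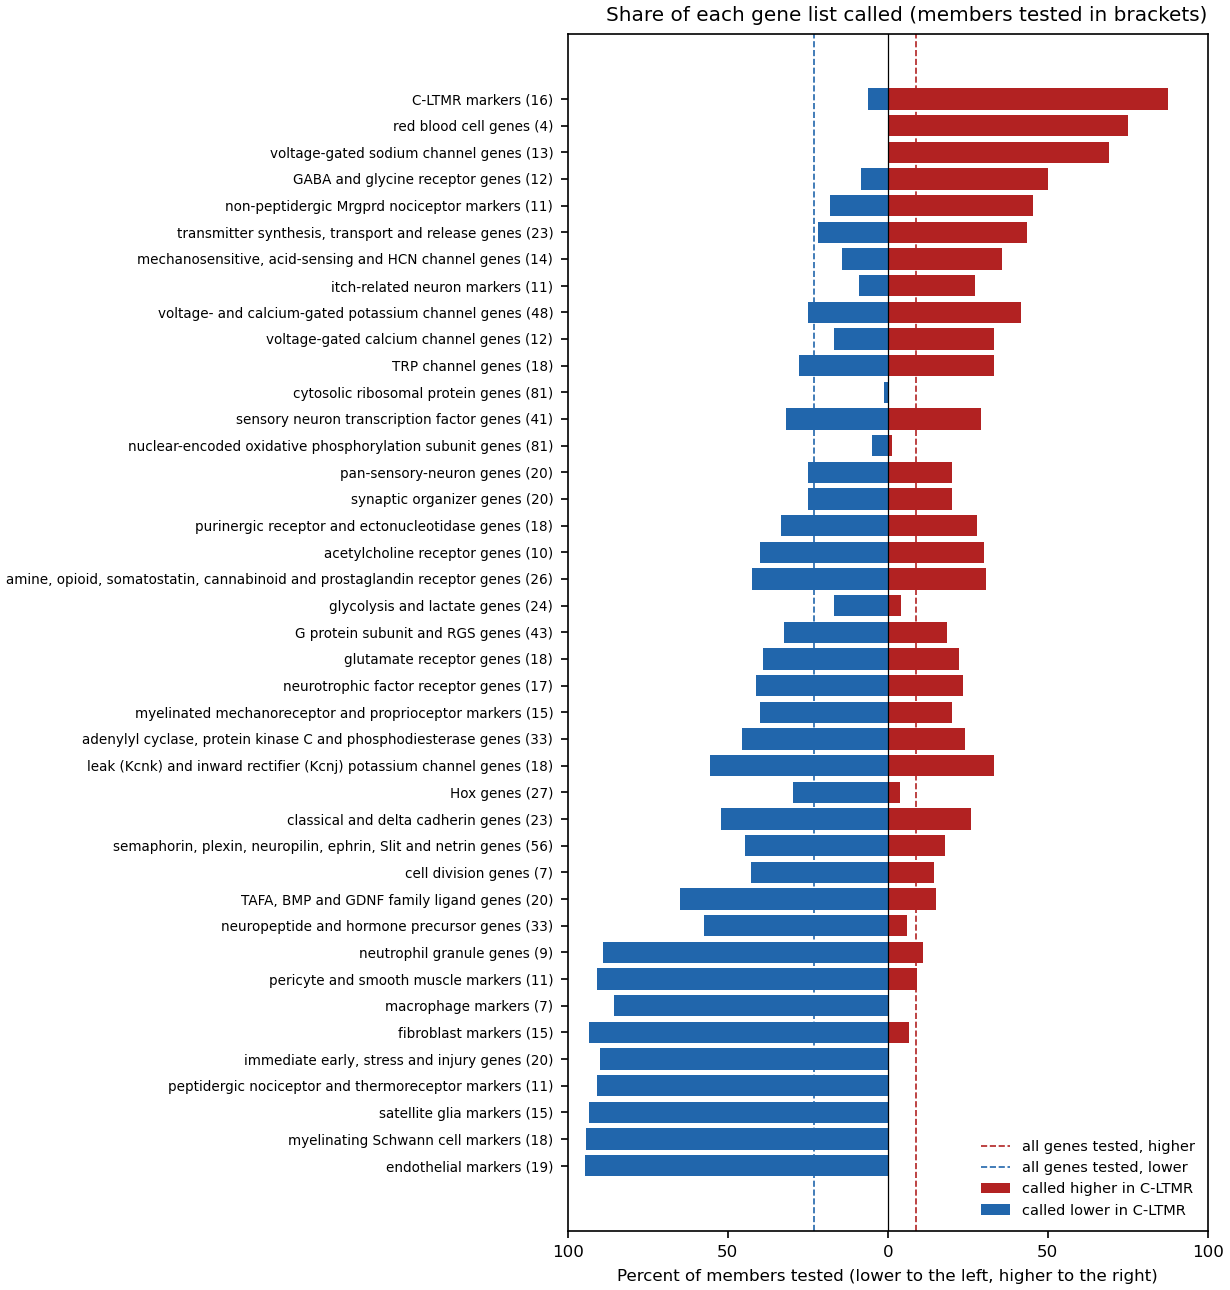
Percent of the tested members of each gene list called higher (red, right) or lower (blue, left) in C-LTMR, with the number tested in brackets and dashed lines at the shares over all genes tested (8.77% higher, 23.2% lower). C-LTMR markers, sodium channels and GABA receptors lie far to the right of the background, and glial, vessel, peptidergic and immediate early lists far to the left. The dashed lines ignore where a gene passed the filter. In DN only passed 16 of 19 endothelial and 8 of 11 pericyte and smooth muscle members, and 90.3% of all such genes were lower.

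Ion channel genes are given by family, to be read against the 8.77% of all genes tested that were higher and the 23.2% that were lower. Of 13 voltage-gated sodium channel genes, 9 were higher and none lower, with a median of 1.27. Scn1a, the pore of Nav1.1, was at 5.36 and 5.66 RPKM against 1.06 and 0.796 RPKM (log2 2.46 ± 0.20; limma adjusted p = 0.000211) and Scn8a (Nav1.6) at 6.78 and 8.08 RPKM against 1.74 and 1.10 RPKM (2.33). Scn9a and Scn10a, the pores of the nociceptor channels Nav1.7 and Nav1.8, were named after their values were seen: 27.8 and 30.9 RPKM against 12.5 and 10.9 RPKM (1.32), and 68.8 and 73.1 RPKM against 39.0 and 30.1 RPKM (1.05). The Scn10a call was lost without DN replicate 2 (0.86, limma adjusted p = 0.0148) and in the TMM-normalized table (0.99). Scn11a, for Nav1.9, was the most abundant of the pores at 100.4 and 116 RPKM against 60.3 and 50.8 RPKM and was not called (0.96), nor was Scn2b (0.87). Both were called higher with libraries at equal medians (1.21 and 1.11) and scaled to pan-sensory-neuron genes (1.10 and 1.01). Most of these differences were modest, since a test against a log2 difference of 1 as the null (limma treat) called 3 of the 9.

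Potassium channel genes moved in both directions. Of 48 voltage- and calcium-gated members, 20 were higher and 12 lower (median 0.69). The higher group was led by the A-type Kv4 channels and their binding proteins. Kcnip2, which encodes the subunit KChIP2, was at 65.6 and 64.2 RPKM in C-LTMR against 0.345 and 0.651 RPKM in DN (log2 6.81 ± 0.26; limma adjusted p = 2.75e-05). Kcnip4 (KChIP4) was at 145 and 136 RPKM against 10.6 and 8.33 RPKM (3.88), and Kcnd1 (Kv4.1) at 30.6 and 32.8 RPKM against 3.43 and 1.61 RPKM (3.69). Kcnd3 (Kv4.3) was at 2.08 and 2.05 RPKM against 0.0589 and 0.0828 RPKM (3.66). Kcnmb2, a subunit of the calcium-activated BK channel, went the other way at 0.27 and 0.361 RPKM against 15.2 and 12.5 RPKM (-5.07), as did Kcns2 (-4.11) and Kcnq5 (-4.02). Kcnab2 and Kcnmb4 were abundant in both subsets and not called (0.57 and -0.53). Under limma treat 12 members were higher, and with 1 added before the logarithm 13. The leak and inward rectifier list had 6 higher and 10 lower genes of 18 (median -2.14). Kcnk18, for the leak channel TRESK, was at 4.61 and 4.87 RPKM against 0.102 and 0.133 RPKM (4.48 ± 0.21), with Kcnk13 (3.46) and Kcnj11 (3.22). Kcnk2, for TREK-1, was at 0.206 and 0.227 RPKM against 14.4 and 12.4 RPKM (-5.41 ± 0.18), with Kcnk3, for TASK-1 (-4.38), and Kcnj2 (-4.31). The lower members include genes of other cells, since Kcnj10 is a satellite glia gene and Kcnj8 a pericyte gene.

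Among 12 voltage-gated calcium channel genes, 4 were higher and 2 lower (median 0.33). After Cacna1i the largest was Cacna2d3, an auxiliary alpha2delta subunit, at 25.5 and 28.9 RPKM against 1.97 and 0.964 RPKM (log2 4.2 ± 0.31), followed by the T-type pore Cacna1h at 6.41 and 8.88 RPKM against 1.96 and 1.38 RPKM (2.13). Cacnb2 was lower (-3.80), at 0.0197 and 0.0487 RPKM against 1.90 and 1.63 RPKM. Cacna1c, for Cav1.2, was lower (-1.17) but not without C-LTMR replicate 1 (-1.02, limma adjusted p = 0.0759) or without DN replicate 1 (-0.90, 0.0516), nor after quantile normalization (-0.17). Cacnb3 and Cacna2d1, the most abundant uncalled members, differed by 0.75 and -0.76. Of 18 TRP channel genes, 6 were higher and 5 lower (median 0.14). Trpc6 was at 3.93 and 3.20 RPKM against 0.361 and 0.432 RPKM (2.88) and Trpc5 at 0.468 and 0.385 RPKM against 0.00617 and 0.00745 RPKM (2.30). Trpc7 was at 0.0262 and 0.0738 RPKM against 5.24 and 4.56 RPKM (-5.07 ± 0.25), so members of the TRPC family lay at opposite ends. Pkd2 (-2.67) and Trpm3 (-2.51) were also lower, and Mcoln1 and Trpa1, the mustard oil receptor, were not called, the latter at -0.62.

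Of 14 mechanosensitive, acid-sensing and HCN channel genes, 5 were higher and 2 lower (median 0.60), led by Fam38b. Accn1, for the acid-sensing channel ASIC2, was at 63.1 and 63.3 RPKM against 21.3 and 15.3 RPKM (log2 1.8), and Stoml1, for a stomatin-like protein, at 87.3 and 80.6 RPKM against 30.7 and 22.7 RPKM (1.66). Accn3, for ASIC3, was lower at 2.82 and 4.17 RPKM against 39.0 and 30.3 RPKM (-3.29), as was Stom (-2.42). The acid-sensing channel genes thus differed in direction. Stoml2 had near-equal levels (0.11).

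**Figure D4:**
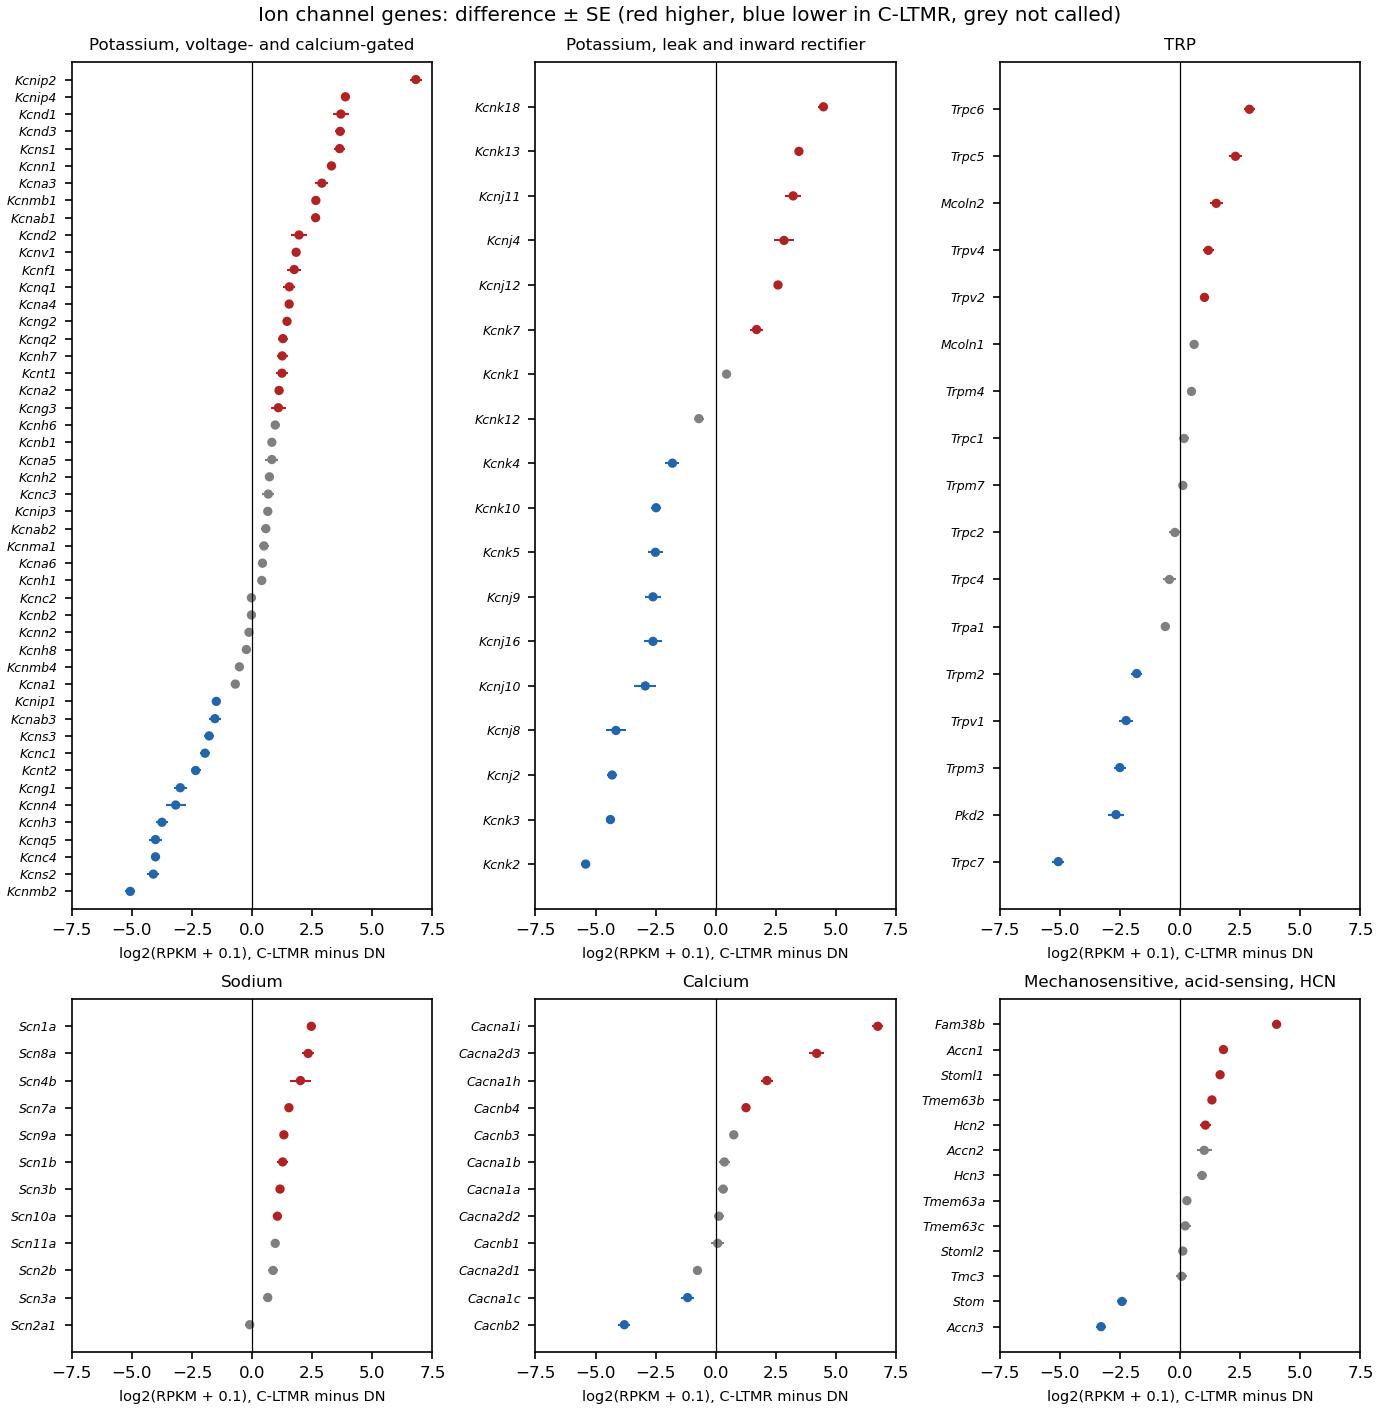
Difference between C-LTMR and DN in log2(RPKM + 0.1), ± SE from limma, for the ion channel genes tested and reported, in 6 families, red for higher, blue for lower and grey for not called. Kcnip2 (6.81) and Cacna1i (6.74) are the largest higher members, and Kcnk2 (-5.41) the largest lower one, while no sodium channel point is blue.

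Receptor genes divided between the subsets as well. Of 18 purinergic receptor and ectonucleotidase genes, 5 were higher and 6 lower (median 0.73). Acpp, which makes prostatic acid phosphatase, an enzyme that forms adenosine, was at 126 and 131 RPKM against 2.36 and 2.0 RPKM (log2 5.82), after P2ry1 and before Nt5e (2.63). Entpd1 (-4.03), P2rx7 (-3.15) and P2ry12 (-2.84), genes known from vessels, glia and immune cells, were lower. P2rx3 and Adora1 were not called here (0.86 and 0.81), but both passed with libraries at equal medians, where 8 members were higher. Of 18 glutamate receptor genes, 4 were higher and 7 lower (median -0.82), with Grik1, Grin2c (1.81) and Grik4 (1.5) at one end, and Grin2d (-3.99), Grm3 (-2.62) and Grik2 (-2.6) at the other. Limma treat left 1 of the 4 higher. Of 12 GABA and glycine receptor genes, 6 were higher and 1 lower (median 1.62). Gabra2, an alpha subunit of the GABA-A receptor, was at 25.9 and 33.1 RPKM in C-LTMR against 3.84 and 3.44 RPKM in DN (2.98). Gabrd, for the delta subunit, was the lower member at 0.0933 and 0.264 RPKM against 6.34 and 3.76 RPKM (-4.23), and Gabbr1 and Glrb were not called (0.68 and 0.75).

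Of 10 acetylcholine receptor genes, 3 were higher and 4 lower (median -0.71). Chrna4, the alpha4 nicotinic subunit, was at 8.28 and 10.9 RPKM against 0.208 and 0.147 RPKM (log2 5.12 ± 0.23), while Chrnb3, the beta3 subunit, was at 0.121 and 0.128 RPKM against 7.12 and 7.91 RPKM (-5.08). Nicotinic subunits thus lay at both ends. Chrnb2 was higher by 1.24, but not without DN replicate 2 (0.98), and Chrm3 by 1.49, but not under limma treat, which called 1 of the 3. Among 26 receptor genes for amines, opioids, somatostatin, cannabinoids and prostaglandins, 8 were higher and 11 lower (median -0.43). Htr1d, the serotonin receptor targeted by triptans, was at 10.3 and 12.9 RPKM against 0.3 and 0.256 RPKM (4.95 ± 0.20), with Adrb1 (3.76) and Hrh1. Sstr2 and the cannabinoid receptor gene Cnr1, at 0.165 and 0.234 RPKM against 7.09 and 5.87 RPKM (-4.46 ± 0.22), were the lowest. Of 17 neurotrophic factor receptor genes, 4 were higher (Gfra2, Ntrk3, Gfra1 by 2.51 and Ret) and 7 lower (median -0.62). Gfra3, the artemin co-receptor, was at 12.9 and 12.9 RPKM against 233 and 212 RPKM (-4.09 ± 0.11) and Kit at 0.616 and 1.26 RPKM against 29.4 and 27.9 RPKM (-4.86). The GDNF family co-receptors Gfra2 and Gfra3 therefore divided the subsets in opposite directions.

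Secreted signals were mostly lower. Of 33 neuropeptide and hormone precursor genes, 2 were higher and 19 lower (median -1.63), and 12 of the 33 passed the filter in DN only. Nmu, the precursor of neuromedin U, was at 4.55 and 5.23 RPKM in C-LTMR against 0.0214 and 0 RPKM in DN (log2 5.50 ± 0.23; limma adjusted p = 2.98e-05). Crh was the other higher one (1.71). Edn1, an endothelial peptide gene, had the largest lower difference (-7.08), with 0.0249 and 0 RPKM against 12.2 and 18.4 RPKM. Igf2, for an insulin-like growth factor, followed (-6.66), listed at 0 in both C-LTMR libraries and at 10.1 and 9.85 RPKM in DN, and then Adcyap1 (-6.12). Chga, a granule protein gene, was not called (0.38). Of 20 TAFA, BMP and GDNF family ligand genes, 3 were higher and 13 lower (median -2.09), 10 of the 20 having passed in DN only. Bmp15, known as an oocyte growth factor, was at 12.7 and 11.5 RPKM against 0.0921 and 0.192 RPKM (5.68 ± 0.25), and Fam19a3 (TAFA3) at 1.05 and 1.52 RPKM against 0.131 and 0.181 RPKM (2.42). Gdf15 (-4.28), Bmp4 (-4.12) and Bmp6 (-3.40) were lower. After quantile normalization 5 members were higher, and with 1 added before the logarithm 7 were lower.

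Of 20 synaptic organizer genes, 4 were higher and 5 lower (25%, near the 23.2% over all genes tested), with a median of 0.17. C1ql4, a secreted C1q-like protein gene, was at 62.9 and 58.1 RPKM in C-LTMR against 0.0626 and 0.0238 RPKM in DN, Cbln2, for a cerebellin, at 14.7 and 17.8 RPKM against 0.0816 and 0.661 RPKM (log2 5.45), and Nxph3, for a neurexophilin, at 21.1 and 25.3 RPKM against 3.47 and 2.56 RPKM (2.91). Lrrtm2 was not called (-0.96), but it was called lower in the TMM-normalized table (-1.03). Lower were Lrrtm1 (-2.42), Slitrk1 (-2.33) and Slitrk2 (-2.0), but without DN replicate 2 only 1 of the 5 lower members was called. Of 23 genes of transmitter synthesis, transport and release, 10 were higher and 5 lower (median 0.42). Syt7, a synaptotagmin, was at 58.9 and 70.0 RPKM against 12.2 and 9.23 RPKM (2.59 ± 0.17) and Tph2, for neuronal tryptophan hydroxylase, at 2.81 and 2.41 RPKM against 0.625 and 0.33 RPKM (2.28). Ddc, which converts L-DOPA to dopamine, was lower at 0.0378 and 0 RPKM against 0.897 and 2.18 RPKM (-3.68), and Gch1, which makes the cofactor of tyrosine hydroxylase, at 1.74 and 1.60 RPKM against 6.68 and 8.86 RPKM (-2.14). Th and these genes of the same pathway therefore had opposite directions. Syt2 was lower (-3.07), and Snap25 and Vamp2, core parts of the release machinery, were not called (0.31 and 0.33).

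Intracellular signalling genes showed isoform differences. Of 43 G protein subunit and RGS genes, 8 were higher and 14 lower (median -0.14), N28178 included. Gnb3 was at 9.73 and 8.34 RPKM against 0.468 and 0.150 RPKM (log2 4.60), Rgs8, for a regulator of G protein signalling, at 32.7 and 36.4 RPKM against 2.94 and 1.77 RPKM (3.86) and Gna14 at 25.9 and 20.5 RPKM against 1.99 and 1.83 RPKM (3.53). Rgs10, named after its values were seen, reached 1086 and 1283 RPKM against 125 and 108 RPKM (3.34). Rgs16 was at 1.11 and 1.12 RPKM against 41.2 and 57.9 RPKM (-5.33 ± 0.19), with Gng11 (-4.22) and Rgs9 (-3.89). Gnas and Gng3 were among the most abundant members and differed by -0.49 and 0.39. Of 33 adenylyl cyclase, protein kinase C and phosphodiesterase genes, 8 were higher and 15 lower (median -0.86). The calcium-dependent phosphodiesterase genes lay at opposite ends, with Pde1b at 7.81 and 9.19 RPKM against 0.373 and 0.341 RPKM (4.23), Pde1c at 12.8 and 14.6 RPKM against 1.74 and 0.973 RPKM (3.29) and Pde1a at 0.218 and 0.233 RPKM against 7.27 and 8.87 RPKM (-4.64). Among the cyclases Adcy8 was higher (2.57) and Adcy7 lower, at 0.0509 and 0.0828 RPKM against 7.67 and 5.70 RPKM (-5.34).

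Of 56 semaphorin, plexin, neuropilin, ephrin, Slit and netrin genes, 10 were higher and 25 lower (median -0.53), 18 having passed the filter in DN only. Sema3e was at 9.36 and 10.1 RPKM against 0.239 and 0.456 RPKM (log2 4.50 ± 0.27), Plxnc1 at 25.3 and 26.3 RPKM against 3.01 and 2.82 RPKM (3.11) and the netrin receptor gene Unc5a at 2.59 and 2.83 RPKM against 0.208 and 0.297 RPKM (3.0). Ntn1, for netrin 1, was lower at 0.0153 and 0.0054 RPKM against 1.61 and 1.48 RPKM (-3.90), with Sema3g (-3.73) and Sema3b (2.78 and 4.81 RPKM against 39.0 and 57.5 RPKM, -3.66). Class 3 semaphorins, secreted guidance cues, were therefore found at both ends. Quantile normalization gave 16 higher members. Of 23 cadherin genes, 6 were higher and 12 lower (median -1.12). Cdh9 was at 20.8 and 16.6 RPKM against 0.00884 and 0.0320 RPKM, Cdh10 at 14.4 and 16.7 RPKM against 1.14 and 1.55 RPKM (3.45) and Cdh7 at 1.32 and 1.17 RPKM against 0.00765 and 0 RPKM (3.70). Cdh5, the cadherin of vessel walls (-5.98), Cdh13 (-3.97) and Cdh19, a glial cadherin (-3.34), were the lowest, and Cdh11 was abundant in both subsets and not called.

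Transcription factors of sensory neurons gave 12 higher and 13 lower of 41 (median 0.10). Besides Bhlha9, Pou4f2 and Zfp521, Isl2 was at 266 and 271 RPKM in C-LTMR against 43.0 and 32.5 RPKM in DN (log2 2.84). Pou4f3, the third gene of the BRN3 family, went the other way at 0.548 and 0.601 RPKM against 44.6 and 41.7 RPKM (-6.0 ± 0.14; limma adjusted p = 1.17e-05). The BRN3 genes therefore had 3 patterns: Pou4f1 was high in both subsets and higher in C-LTMR, Pou4f2 was under 1 RPKM in DN, and Pou4f3 under 1 RPKM in C-LTMR. Bcl11a, a zinc finger gene, was at 0.0933 and 0.273 RPKM against 18.3 and 16.8 RPKM (-6.04), and Hmx1 was lower (-4.81). Klf7 was abundant in both and not called (0.77), but it was called higher with libraries at equal medians (1.01). Of 27 Hox genes, 1 was higher (3.7%) and 8 lower (29.6%, near the 23.2% over all genes tested), with a median of -0.65. Hoxb5 was at 38.0 and 39.0 RPKM against 11.2 and 7.5 RPKM (2.06), and Hoxb9 at 0.13 and 0.0803 RPKM against 1.42 and 1.88 RPKM (-3.09), with Hoxd1 (-2.31) and Hoxa2 (-1.78). Hoxb5 and Hoxb9 lie in the same Hox cluster and differed in direction. After quantile normalization 4 were higher and 3 lower, whereas rescaling to equal medians gave 3 higher and 7 lower and rescaling to pan-sensory-neuron genes 2 and 8.

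Most vessel, connective tissue and myelin genes were near 0 in C-LTMR and higher in DN, where they stood beside neuronal genes. In bulk samples, fewer cells of a type and less RNA per cell cannot be told apart. Of 19 endothelial markers, 18 were lower and none higher (median -5.73), although 16 of the 19 passed the filter in DN only. Cldn5, a tight junction gene of vessels, was at 0.144 and 0.0875 RPKM against 127 and 217 RPKM (log2 -9.60 ± 0.28), and Kdr at 0.00536 and 0.0132 RPKM against 3.62 and 5.62 RPKM. Egfl7 was not called (-0.53), and its 46.9 and 47.0 RPKM in C-LTMR made up most of the summed level of 54.9 and 53.3 RPKM there, against 529 and 877 RPKM in DN. Of 15 fibroblast markers, 14 were lower (median -5.01), and 10 of the 15 passed the filter in DN only. Dcn, for the matrix proteoglycan decorin, was at 3.65 and 4.50 RPKM against 224 and 245 RPKM (-5.82), and Col1a1 was lower as well (-6.84). The summed level of the list was 9.35 and 13.3 RPKM against 606 and 823 RPKM. Pdgfra was the exception, at 1.11 and 1.37 RPKM against 0.464 and 0.493 RPKM (1.21). Of 11 pericyte and smooth muscle markers, 10 were lower (median -4.12), and 8 of the 11 passed the filter in DN only. Vtn (-6.42) and Acta2 (-6.32) led, and Kcnj8 was listed at 0 in both C-LTMR libraries. Rgs5, used as a pericyte marker, was higher at 79.5 and 82.3 RPKM against 6.77 and 12.7 RPKM (3.11). It made up nearly all of the list's summed level in C-LTMR, 81.2 and 85.3 RPKM, but little of that in DN, 65.3 and 108 RPKM.

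Schwann cell and satellite glia genes followed the same direction with different spread. Of 18 markers of myelinating Schwann cells, 17 were lower (median -5.15), and 9 of the 18 passed the filter in DN only. Prx, for periaxin of the myelin sheath, was at 0.142 and 0.171 RPKM against 28.3 and 20.8 RPKM (log2 -6.57 ± 0.21). Pmp22 was at 1203 and 1166 RPKM against 768 and 679.9 RPKM, and was not called (0.71). It made up most of the list's summed level in C-LTMR, 1402 and 1366 RPKM, but not in DN, 1860 and 1813 RPKM. Of 15 satellite glia markers, 14 were lower (median -3.01). Apoe, for apolipoprotein E, was at 763 and 1449.6 RPKM against 5710 and 12918 RPKM (-3.03 ± 0.46; limma adjusted p = 0.00241), the highest level of any member. Gja1, for connexin 43, was at 1.52 and 3.38 RPKM against 28.5 and 71.3 RPKM (-4.25). In both subsets replicate 2 was the higher of the pair: the median difference between replicates over the list was 0.87 in C-LTMR and 1.09 in DN, and the summed level was 1352 and 2308 RPKM against 7977 and 18090 RPKM. Without DN replicate 2, 10 of the 15 remained called, and Apoe was at -2.44 (limma adjusted p = 0.051), Fabp7 at -2.13 (0.0896), Ednrb at -2.58 (0.0752) and Kcnj10 at -2.38 (0.063).

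Blood cell genes differed in direction between lists. Of 17 macrophage markers only 7 passed the filter, 5 of them in DN only, and 6 of the 7 were lower (median -2.94). Lyz2 was at 0.233 and 0.0302 RPKM against 13.9 and 18.8 RPKM (log2 -6.29), and Cd14 lost its call without DN replicate 2. Of 9 neutrophil granule genes, 8 were lower (median -5.24), led by S100a9 (-6.97) and Lcn2 (-6.67), at a summed level of 1.03 and 0.855 RPKM against 44.4 and 82.2 RPKM. The filter was passed in DN only by 8 of the 9, and 90.3% of all genes that passed so were lower. Prtn3 was the exception, at 0.703 and 0.638 RPKM against 0.0529 and 0.224 RPKM (1.79). Only 2 of 14 lymphocyte and mast cell markers were tested, with Cpa3 higher (1.81) and Cd79a lower (-1.49), and the Cd79a call was lost without C-LTMR replicate 1 (-0.97) and without either DN library. Of 4 red blood cell genes 3 were higher (median 2.77). Alas2, for the first enzyme of heme synthesis in red cells, was at 21.3 and 23.8 RPKM against 1.49 and 3.91 RPKM (3.16), and Hbb-b2, a beta-globin gene whose near-copies make its reads uncertain, at 13.6 and 21.0 RPKM against 0.513 and 3.41 RPKM (3.53). Bpgm was not called (-0.41).

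**Figure D5:**
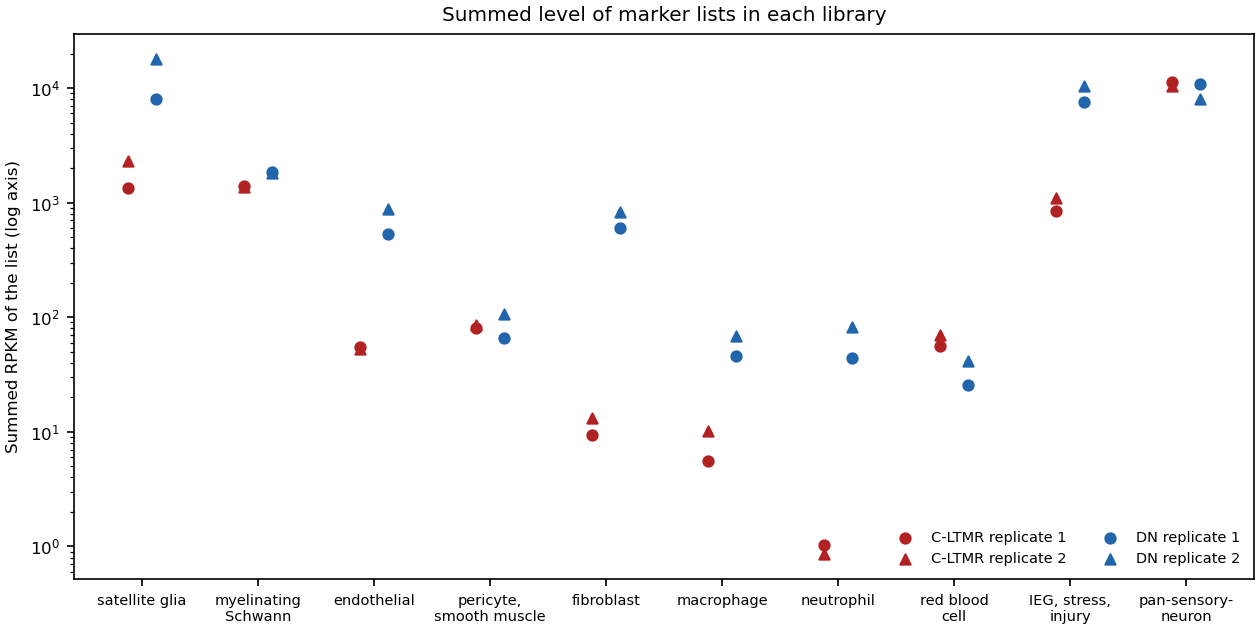
Summed RPKM (log axis) of each marker list in the 4 libraries, circles for replicate 1, triangles for replicate 2, red for C-LTMR and blue for DN. Fibroblast markers sum to 9.35 and 13.3 RPKM in C-LTMR against 606 and 823 RPKM in DN, satellite glia genes are higher in replicate 2 of both subsets, and the pan-sensory-neuron list lies near the same level in all 4.

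Immediate early, stress and injury genes were lower in C-LTMR as a group: 18 of 20 were lower and none higher (median -3.15), and all 20 passed the filter in both subsets. The lowest member was Gal (-5.95), which is also counted among the peptidergic markers above. Immediate early genes are switched on within minutes by activity, injury or cell handling. Fos, named after its values were seen, was at 325 and 394 RPKM in C-LTMR against 2569 and 4068 RPKM in DN (log2 -3.17 ± 0.25; limma adjusted p = 0.000178). Nr4a1, also named so, was at 29.7 and 51.7 RPKM against 373 and 485 RPKM (-3.44), and Btg2 at 17.4 and 27.5 RPKM against 258 and 389 RPKM (-3.85). The libraries of the subsets did not overlap in any of the 3, which adds nothing to calls of this size. Hspa1a, a heat shock gene with a near-copy in Hspa1b, was lower at 4.77 and 10.2 RPKM against 66.5 and 141 RPKM (-3.77). Atf3, a factor known from injured neurons and named after its values were seen, was at 80.3 and 109.7 RPKM against 611 and 843 RPKM (-2.93). Gadd45a was not called (-0.71), and Sprr1a was at 8.80 and 0.941 RPKM against 3.18 and 2.20 RPKM, with replicates further apart than the subsets (0.15, and -1.40 without C-LTMR replicate 1). The summed level of the list was 850.3 and 1099 RPKM against 7511 and 10370 RPKM. Satellite glia, Schwann cell, vessel and fibroblast markers were lower in the same libraries, at the values given above, and their part in this result was not tested.

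Housekeeping groups changed little. Of 81 cytosolic ribosomal protein genes, 1 was lower (1.23%, against the background of 23.2%) and none higher, with a median of -0.32 and a range from -1.15 to 0.43. These genes have many processed near-copies in the genome, so their counts are uncertain. The lower one was Rps27, at 3.58 and 4.79 RPKM against 9.05 and 9.55 RPKM. Its call was lost without C-LTMR replicate 1 (log2 -0.94) and without DN replicate 2 (-1.11). It was also lost with 1 added before the logarithm, under limma treat, after quantile normalization (-0.91) and with libraries at equal medians (-0.91). Of 81 nuclear genes of oxidative phosphorylation, 1 was higher and 4 lower (median 0.03), namely Cox7b2 (1.97), Ndufa4l2 (-3.84), Cox4i2 (-3.08), Cox6b2 (-2.86) and Cox7a1 (-1.95), all isoforms known for restricted tissue use. The Cox7b2, Cox6b2 and Cox7a1 calls were lost without DN replicate 2 (1.21, -2.41 and -1.80, limma adjusted p = 0.071, 0.0934 and 0.0527). Of 24 glycolysis and lactate genes, 1 was higher (Pfkp, 1.04) and 4 lower (median 0.20): Aldoc, an aldolase enriched in glia (-1.92), Slc2a1, the glucose transporter GLUT1 of vessels (-1.91), Ldhb and Slc2a3 (-1.02). Without DN replicate 2 Pfkp was at 0.80, and without DN replicate 1 Slc2a3 was at -0.80, both under the size threshold, and Slc2a3 also missed it with libraries at equal medians (-0.77). Of 7 cell division genes tested, Bub1 was higher (1.47) and Cdk1 (-2.90), Plk1 (-1.39) and Kif11 (-1.13) lower (median -0.11), and no member passed 3 RPKM in any library. Plk1 was not called without either DN library, and Kif11 turned to 0.17 after quantile normalization.

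Genes absent from the authors' TMM-normalized table made up 7288 of the 13907 tested, and they are mostly low: the median over these genes of the highest library was 3.07 RPKM, against 28.3 RPKM for the genes in it. Of them 596 (8.18%) were higher and 2293 (31.5%) lower, against 623 (9.41%) and 936 (14.1%) of the 6619 genes in the table. The higher ones were led by Defb42, a beta-defensin gene, at 26.2 and 32.3 RPKM against 0.501 and 0.323 RPKM (log2 5.85 ± 0.23). Ccl1, for a chemokine, was at 16.8 and 17.6 RPKM against 0.0508 and 0.552 RPKM (5.78 ± 0.63), and Ttc29 at 7.26 and 7.48 RPKM against 0.0477 and 0.0521 RPKM (5.64). Tmprss11c, for a serine protease, was at 6.73 and 4.23 RPKM in C-LTMR and was listed at 0 in both DN libraries. Cytl1 was listed at 0 in both C-LTMR libraries and at 15.47 and 14.9 RPKM in DN, and Gkn3 likewise at 0 against 11.96 and 16.3 RPKM. Ecscr, an endothelial gene (-7.20), 1500015O10Rik (-7.11) and Tmem252 (-7.08) completed the lower leaders. In all, 14 of the genes called higher were listed at 0 in both DN libraries and 132 of those called lower were listed at 0 in both C-LTMR libraries. Kcnk18, Nmu, Sstr2, Bmp4 and Gnb3 above are also absent from that table, so a comparison limited to it holds none of them.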

How the data were processed

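Total RNA of sorted mouse dorsal root ganglion cells was profiled in 6 libraries, of which the 2 C-LTMR and 2 DN libraries are compared here. Per the labels' protocols, an amino allyl kit amplified 50 ng of RNA by in vitro transcription, and TruSeq libraries went onto an Illumina HiSeq sequencer. Amplification by in vitro transcription can change the relative levels of transcripts. The authors worked with build GRCm38 (mm10), edgeR 2.6.2 and CASAVA 1.8.2, per the submitters' processing notes. The sources used here give neither the aligner settings nor the annotation or strand setting, so reads of overlapping genes cannot be told apart. The main table holds RPKM values deposited by the authors for 23029 genes. A second deposited table holds a TMM-normalized signal for 6620 genes and served as an alternative.

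Genes needed at least 0.3 RPKM in both libraries of 1 subset. Differences of log2(RPKM + 0.1) were tested with limma 3.58.1 (R 4.3.3; lmFit, eBayes with a trend) on the 4 libraries, with 2 residual degrees of freedom per gene and 3.993 prior degrees of freedom, and p-values were adjusted over all 13907 genes. On simulated data with 50 genes changed at each size, 98% of log2 changes of 4, 98% of -4, 92% of 2 and 82% of -2 were recovered among 13907 genes, with 6 unchanged genes called. The simulated libraries had independent noise, equal scaling and few changed genes, unlike the real ones. These rates therefore check that the fit runs correctly and do not measure the error of the calls. The 42 gene lists and the members named were chosen with earlier results of these data known, so counts over a list describe it and are not independent evidence. Named with values were the 8 genes of largest called difference per direction, the 5 among genes absent from the TMM-normalized table, up to 3 called members per direction and the 2 most abundant uncalled members of each list, and all C-LTMR markers. Outside that rule, Tac1, Calca, Trpv1, Mrgprd, Isl2, N28178, Rgs10, Scn9a, Scn10a, Fos, Nr4a1, Atf3, Hspa1b, Cox7a1, Slc2a3 and the genes of the closing section were named after their values were seen. Some items that the rule names are not reported here. Gene symbols and coordinates are the files' own: 22954 Entrez IDs (99.7%) matched RefSeq genes of GRCm38.p6, and the positions of 99.5% of those overlapped. Alternatives changed the pseudocount, the filter, the scaling, the table, the trend, the null of the test, the libraries fitted and a block on replicate number.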

Additional observations from a re-analysis of the deposited data

How the results depend on the processing

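The counts moved with the scaling, the pseudocount and the size criterion. With a pseudocount of 1, 829 genes were higher and 2182 lower. The number of genes higher in C-LTMR was 2117 after quantile normalization, 648 when the test took a log2 difference of 1 as its null (limma treat) and 589 in the TMM-normalized table, where 967 were lower and 6619 genes were tested, which limits both counts. Among genes absent from that table, higher and lower calls numbered 256 and 1291 with a pseudocount of 1, 288 and 1504 under limma treat, and 1360 and 1474 after quantile normalization. A pseudocount of 1 shrinks differences of low genes by its construction. For quantile normalization the cause was not tested. Leaving out 1 library gave 1075 to 1381 higher and 2749 to 3185 lower genes, and 524 to 623 and 1923 to 2223 among the absent genes, with the lone library of a subset assumed to vary like the other subset. The values of 2 named genes reversed: Kif11 was 0.17 (limma adjusted p = 0.556) after quantile normalization, and Sprr1a was -1.40 (limma adjusted p = 0.0227) without C-LTMR replicate 1, against 1.70 when the other C-LTMR library was left out. Of 299 named genes that were called, 253 kept their call in each alternative that held them. All 6 libraries in one fit, no trend, no filter and a minimum of 1 RPKM left the direction of both main counts as it was, with 1026 to 1329 higher and 2557 to 3638 lower genes. The depth is unknown, so values near 0 RPKM may rest on few reads.

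Replicate numbers do not pair the libraries by any label. Libraries with the same number deviated together with r = 0.2812 over genes, and only 2 pairs exist. With the replicate number as a block, 1228 genes were higher and 3245 lower, with 605 and 2308 among the absent genes, all main calls included.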

Other observations

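The following genes, apart from Wfdc2, were picked after their values were seen, with no list or test behind the choice. Wfdc2, a protease inhibitor gene of epithelia, was at 193 and 233 RPKM in C-LTMR against 0.58 and 0.694 RPKM in DN, and Spink2, another protease inhibitor gene, at 40.9 and 44.3 RPKM against 0.894 and 1.35 RPKM (log2 5.15). Krt27, a keratin of the hair follicle, was at 15.9 and 14 RPKM against 0.25 and 0.262 RPKM (5.40), and Grhl3, a transcription factor of the skin barrier, at 13.95 and 11.6 RPKM against 0.0607 and 0.0447 RPKM (6.4). Pkp3, for the desmosome protein plakophilin 3, was at 10.6 and 8.66 RPKM against 0.416 and 0.225 RPKM (4.57). Crct1, a gene of the cornified layer, was at 4.48 and 3.62 RPKM and was listed at 0 in both DN libraries. Gpx2, for a glutathione peroxidase of epithelia, was at 42.1 and 48.4 RPKM against 0.344 and 0.261 RPKM (6.82). In each of these genes the 2 C-LTMR libraries were above both DN libraries, which a choice made on the values all but fixes.

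A few receptors and developmental genes outside the lists had similar patterns. Cckar, a receptor for cholecystokinin, was at 90.9 and 93.9 RPKM against 0.957 and 0.651 RPKM (log2 6.70), and Hcrtr2, an orexin receptor, at 10.6 and 9.32 RPKM against 0.0385 and 0.0499 RPKM (6.13). Wnt11 was at 8.42 and 8.64 RPKM against 0.175 and 0.267 RPKM (4.76), and Neurog3, a factor of endocrine development, at 2.40 and 2.36 RPKM against 0 and 0.0201 RPKM (4.50). In the other direction, Cxcl12, a chemokine gene, was at 0.00816 and 0.00865 RPKM in C-LTMR against 13.5 and 20.1 RPKM in DN (-7.26), and Icam1, an adhesion molecule of vessel walls, at 0.046 and 0.0959 RPKM against 22.5 and 33.6 RPKM (-7.35).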
